A study of Homo sapiens with 6 samples.

Results

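The chaperonin genes of human cells were examined on 6 arrays: the 8 subunits of the cytosolic chaperonin CCT (TCP1, CCT2, CCT3, CCT4, CCT5, CCT6A, CCT7 and CCT8) and the mitochondrial pair HSPD1 and HSPE1. Every probe set whose annotated gene symbol is 1 of these 10 genes was taken. That gave 18 probe sets for 9 of the 10 genes, out of 54613 probe sets that are not controls. For TCP1, the alpha subunit, 3 probe sets were listed jointly under TCP1 and the small nucleolar RNA gene SNORA29, so no value is named as TCP1 and 7 CCT subunits were measured. The RNA came from a human cell line of kidney origin that the labels do not name. All cells were transfected, and each group had 2 arrays. The mock group received an empty vector, and the others received the constructs hIMP1 wt and hIMP1 Dmut. IMP1 is a protein encoded by IGF2BP1 that binds RNA and controls where and how long certain mRNAs persist, and what Dmut means is not given in the labels. Each group had 1 array numbered 1 and 1 array numbered 2. Nothing in the labels ties the numbers to separate cultures, and p-values therefore describe the spread between arrays alone, which may be technical.

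Chaperonins are barrel-shaped complexes that enclose an unfolded protein and release it folded after hydrolysing ATP. CCT, also called TRiC, is built from related subunits in stacked rings and is best known for folding actin and tubulin, with prefoldin handing it new chains. HSPD1 (HSP60) forms the barrel of the mitochondrial chaperonin and HSPE1 (HSP10) its lid. They fold proteins after import into the matrix, and their genes lie head to head and are known as targets of heat shock factor.

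Deposited values are intensities on a linear, arbitrary scale, 1 for each probe set and array. The median over probe sets lay between 26.7 on hIMP1 wt number 2 and 33.7 on hIMP1 Dmut number 2. Precision is limited by the 2 arrays a group. Arrays of the same number correlated more closely (r across 27307 probe sets from 0.970 to 0.980) than arrays of the same group (0.963 to 0.964). Of 10 kidney epithelial markers 9 were on the array and 7 were bright enough to be kept for testing. The 9 summed to between 2129 and 2410 in intensity on each array, with KRT18 at 1149 to 1356. SIX2, CDH1 and LRP2 stayed at or below 76.3, and PAX2 and LHX1 at or below 40.8. The 4 blood cell markers on the array summed to between 79.8 and 144.5, with PTPRC at 17.7 or less. Of these CD3E (6.3 to 57.1) and HBB (34.9 to 86.9) were kept for testing. The 7 fibroblast and endothelial markers summed to between 204.7 and 302.7, and COL1A1 (87.2 to 166.0) and PECAM1 (7.5 to 60.9) were kept. Both sums were highest on hIMP1 Dmut number 2, and their part in the results was not tested. The transfected gene, IGF2BP1, had an intensity of 231, 226 and 266 on mock, hIMP1 wt and hIMP1 Dmut number 1 and of 307, 326 and 288 on number 2. The files do not say which stretch of IGF2BP1 that probe set reads, so it does not check the transfection.

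HSPA6, an inducible HSP70 gene, was the single gene called in any comparison of groups, and heat shock elements are the binding sequences of heat shock factor, so the promoters of the chaperonin genes were searched for them. Windows from 250 bases before to 50 bases after each annotated start came from RefSeq (GRCh38.p14), which gave 12 windows for 9 of the 10 genes. CCT6A had no window. Heat shock elements are built of inverted GAA and TTC units, so both strands were searched for 2 joined units (GAANNTTC or TTCNNGAA) and for 3 or 4 joined units, in which a longer match also counts as the shorter ones. Among 35116 windows of the same length 13.5% held 2 units, 0.490% held 3 units and 0.0342% held 4 units. The printed stretches show the match in capitals, 5′ to 3′ on the gene's own strand.
HSPD1, 4 units, chr2:197500061-197500090, minus strand: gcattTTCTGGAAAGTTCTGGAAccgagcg
CCT2, 2 units, chr12:69585789-69585818, plus strand: cccggagcgaaGAAATTTCtagtgtgggac
TCP1, 2 units, chr6:159789815-159789844, minus strand: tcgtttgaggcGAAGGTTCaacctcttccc
HSPD1 was the 1 member with 3 or more units. Its match lay 228 to 245 bases before an annotated start of HSPD1 and 294 bases before the start of HSPE1, just outside the HSPE1 window, which held no match. From the other annotated start of HSPD1 the same match lay 189 bases inside the gene. The CCT2 match was 82 to 89 bases and the TCP1 match 224 to 231 bases before the start, and CCT4 had 2 units 38 to 45 bases after 1 of its starts. The windows of CCT3, CCT5, CCT7 and CCT8 and the other windows of CCT2, CCT4 and HSPD1 held no match. A match is a run of letters, not a measured binding site.

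The CCT subunits were bright on every array. At its brightest probe set CCT2, the beta subunit, had an intensity of 7943 (mock), 7689.6 (hIMP1 wt) and 8135 (hIMP1 Dmut) on the arrays numbered 1 and of 7307, 7235 and 6189.5 on those numbered 2. All 3 arrays numbered 2 were below all 3 numbered 1, and the lowest was hIMP1 Dmut number 2. A second probe set of CCT2 had the same order of numbers, with 4580.1, 4751 and 4943 against 4033, 4089.8 and 3264.

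CCT3, the gamma subunit, had intensities of 4307, 4356 and 4303 on the arrays numbered 1 and of 4756, 5016 and 3971 on those numbered 2, in the order mock, hIMP1 wt, hIMP1 Dmut that is kept throughout. Both hIMP1 Dmut arrays were below the other 4, the one numbered 1 by a margin of 4303 against 4307. CCT4, the delta subunit, gave 6333, 6683 and 7119 with number 1 and 8281, 8055 and 6110.4 with number 2. Here number 2 was above number 1 with mock and hIMP1 wt and below it with hIMP1 Dmut. CCT5, the epsilon subunit, which like CCT4 can form rings by itself in vitro, had the same arrangement, at 4352.5, 4198 and 4925 and then 4972, 5074 and 4232.

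CCT6A, the zeta subunit, varied least, with 3955, 3955 and 4012 on the arrays numbered 1 and 3851, 3793 and 3944 on those numbered 2. Its highest array was 1.06 times its lowest. CCT7, the eta subunit, ran from 4701, 4801 and 5557 to 5559.7, 5430.5 and 4255. Its lowest array was hIMP1 Dmut number 2, and hIMP1 Dmut number 1 was nearly level with the highest, mock number 2. CCT8, the theta subunit, gave 6726, 6586 and 6801 and then 6866, 6985 and 6212, so it too was lowest on hIMP1 Dmut number 2.

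HSPD1, the barrel of the mitochondrial chaperonin, was at 13065, 13294 and 14816 on the arrays numbered 1 and at 17164, 16285 and 12633 on those numbered 2. The lowest and the highest value both fell on arrays numbered 2, hIMP1 Dmut and mock. A second bright probe set of HSPD1 lay between 7656 on hIMP1 Dmut number 2 and 9661 on hIMP1 wt number 2. HSPE1, the lid, had 2301, 2301 and 2460.05 with number 1 and 2920.5, 3647 and 2752 with number 2. Every array numbered 2 was above every array numbered 1, and hIMP1 wt number 2 stood highest.

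As a set the chaperonin genes were about as steady as other bright probe sets. The ratio of the highest to the lowest array ran from 1.06 for CCT6A to 1.58 for HSPE1 with a median of 1.31, against a median of 1.32 over 774 kept probe sets in the same range of mean intensity and 1.62 over all 27307 kept. Levels are not compared between genes, since probe sets differ in how brightly they bind.

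**Figure D1:**
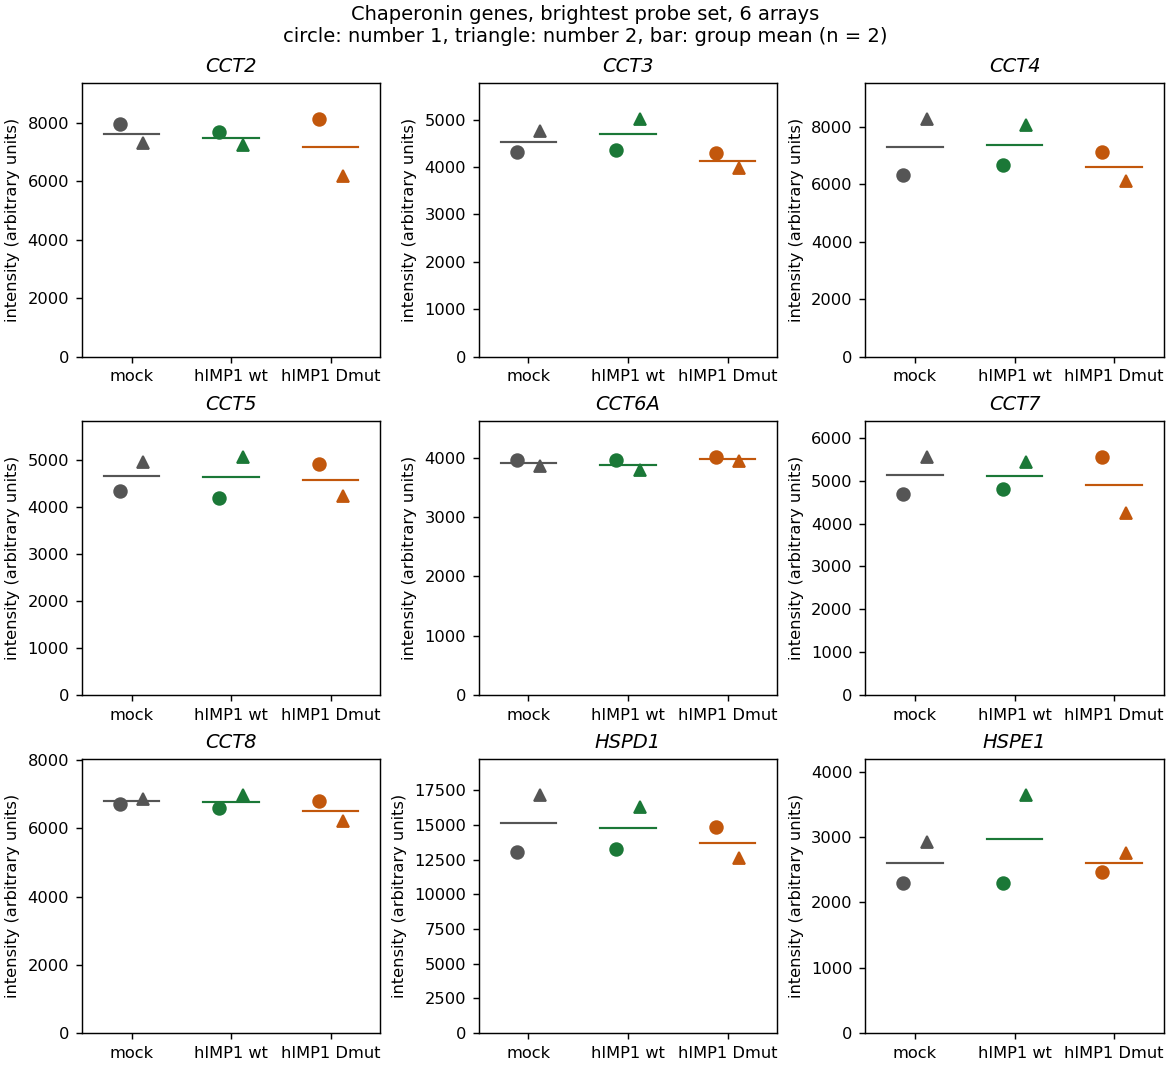
Deposited intensity (arbitrary units, linear axis from 0) of the 9 measured chaperonin genes at the brightest probe set, by group. Circles are arrays numbered 1, triangles arrays numbered 2 and bars the mean of the 2 arrays. For CCT3, CCT4, CCT5, CCT7, CCT8 and HSPD1 the triangle is above the circle with mock and hIMP1 wt and below it with hIMP1 Dmut, and for HSPE1 it is above in all 3 groups.

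The remaining probe sets were mostly dim. CCT4 had a dim probe set at 80.6, 57.0 and 25.3 on the arrays numbered 1 and 72.8, 78.6 and 45.1 on those numbered 2, where both hIMP1 Dmut arrays were lowest. A dim probe set of CCT5 lay between 130.2 and 169.9, and a second bright one of CCT6A between 1733 and 2471. HSPD1 had dim probe sets at 78.9 to 101.3 and at 43.0 to 86.5. A probe set of CCT8 (17.0 to 35.7) and one of HSPD1 (4.58 to 44.5) did not reach the level needed for testing, which left 16 of the 18. The 3 probe sets listed under TCP1 and SNORA29 lay at 3560.4 to 4979, 624 to 938 and 594 to 738. Pseudogenes resemble several of these genes. RefSeq lists 22 pseudogene symbols for HSPD1, 28 for HSPE1, 5 for CCT6A and 0 for CCT2. Whether transcripts of pseudogenes add to the signal was not tested.

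In the comparison of hIMP1 wt with mock none of the 9 chaperonin genes passed the test (limma on log2 intensity, threshold of 0.05 after Benjamini-Hochberg adjustment over all kept probe sets). Across the array 0.00732% of kept probe sets were called, and these 2 probe sets both read HSPA6. At an unadjusted p under 0.05 there were 281 kept probe sets and 0 brightest probe sets of a chaperonin gene. Over the 7 CCT subunits the log2 differences lay between -0.03 and 0.05 with a median of -0.003, beside -0.01 over all 12269 genes tested. CCT3 differed by 0.05 ± 0.17 (SE, 95% interval -0.32 to 0.41), CCT2 by -0.03 ± 0.18 and CCT4 by 0.02 ± 0.19. CCT5, CCT6A, CCT7 and CCT8 were within 0.02 of 0. HSPE1 had the largest difference, 0.16 ± 0.23 (-0.35 to 0.67), with 0.0001 within number 1 and 0.32 within number 2, and HSPD1 differed by -0.03 ± 0.20. Adjusted p was 1.00 for each gene in limma. Among the brightest probe sets the interval of HSPE1 reached furthest from 0, to 0.67 on the log2 scale. The intervals are not adjusted for the number of tests, so changes of this size or larger could go uncalled with 2 arrays a group.

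At their brightest probe sets all 9 genes had overlapping groups in this comparison. Other probe sets of the same genes did not always overlap, as was the case upwards for 9.72% and downwards for 11.6% of all kept probe sets. The second probe set of CCT6A was higher with hIMP1 wt (0.24 ± 0.18), as was the second bright one of HSPD1 (0.14 ± 0.17). A dim one of CCT5 was lower (-0.28 ± 0.24), as was a dim one of HSPD1 (-0.57 ± 0.32). None of these 4 passed (adjusted p = 1.00, limma), and the brightest probe sets of the 3 genes did not show such differences.

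For hIMP1 Dmut against mock, which shares its mock arrays with the comparison above, again 0 of 9 chaperonin genes passed, with 0.00732% of kept probe sets called, both of HSPA6. At an unadjusted p under 0.05 there were 387 kept probe sets in all and 0 brightest probe sets of a chaperonin gene. The log2 differences were -0.13 ± 0.17 (SE) for CCT3, -0.13 ± 0.19 for CCT4, -0.10 ± 0.18 for CCT2, -0.07 ± 0.19 for CCT7 and -0.06 ± 0.16 for CCT8. CCT5 (-0.03 ± 0.18) and CCT6A (0.03 ± 0.15) were closest to 0. The median over the 7 subunits was -0.07, beside -0.01 over all genes tested, and 6 of 7 were below 0 compared with 51.3% of genes. Without hIMP1 Dmut number 2 that median was 0.04, without mock number 2 it was 0.01, and without hIMP1 Dmut number 1 it was -0.19. HSPD1 differed by -0.13 ± 0.20 (-0.57 to 0.31) and HSPE1 by 0.01 ± 0.23. Among the brightest probe sets CCT3 alone had groups that did not overlap, being lower with hIMP1 Dmut. A dim probe set of HSPD1 (-0.19 ± 0.26) and the dim one of CCT4 were also lower without overlap. Over all kept probe sets 11% did not overlap downwards and 12.6% upwards.

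The dim probe set of CCT4 had the largest difference of any chaperonin probe set, at -0.99 ± 0.34 (SE, 95% interval -1.76 to -0.22, adjusted p = 1.00, limma). It was 1 of the 387 probe sets with an unadjusted p under 0.05, and it was lower within number 1 (-1.38) and within number 2 (-0.60). The brightest probe set of CCT4 went in opposite directions within the 2 numbers, at 0.17 and -0.44, so the 2 probe sets of that gene disagree.

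The direct comparison of hIMP1 Dmut with hIMP1 wt asks whether the 2 constructs differ. No probe set on the array was called by limma (0%), and 337 had an unadjusted p under 0.05. CCT3 was 0.18 lower on the log2 scale with hIMP1 Dmut (-0.18 ± 0.17, 95% interval -0.54 to 0.19), without overlap of the groups, alone among the brightest probe sets. The dim probe set of CCT4 (-0.82 ± 0.34), which was 1 of those 337, was lower without overlap, as were the second bright probe set of HSPD1 (-0.17 ± 0.17) and a dim one (-0.29 ± 0.26). Another dim probe set of HSPD1 was higher without overlap (0.60 ± 0.32), and adjusted p was 1.00 for each of these 4 (limma). Groups did not overlap downwards for 8.89% and upwards for 13.1% of kept probe sets. CCT4 differed by -0.15 ± 0.19, CCT2 by -0.07 ± 0.18, CCT7 by -0.07 ± 0.19, CCT8 by -0.06 ± 0.16, CCT5 by -0.02 ± 0.18 and CCT6A by 0.04 ± 0.15. HSPD1 and HSPE1 differed by -0.11 ± 0.20 and -0.15 ± 0.23. The median over the CCT subunits was -0.07, beside 0.01 over all genes tested. It was 0.05 without hIMP1 Dmut number 2, -0.23 without hIMP1 Dmut number 1, -0.15 without hIMP1 wt number 1 and -0.02 without hIMP1 wt number 2.

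**Figure D2:**
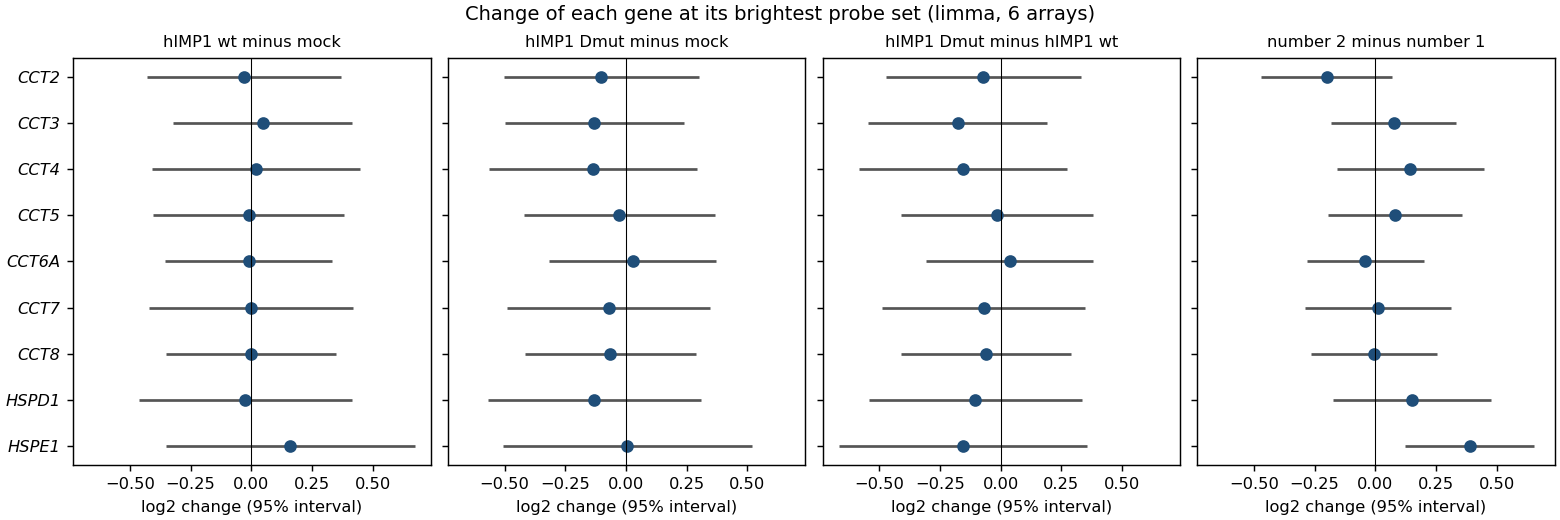
Log2 difference of each measured chaperonin gene at its brightest probe set (points) with 95% intervals (lines) from limma, for the 3 comparisons of groups and for the arrays numbered 2 against those numbered 1. Every interval of the comparisons of groups spans 0, and in the last panel the interval of HSPE1 (0.12 to 0.65) lies above 0.

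HSPA6 gives the contrast within the heat shock genes. Its intensity was 28.6 and 3.02 on the mock arrays, 646 and 454 with hIMP1 wt and 1033 and 824 with hIMP1 Dmut, for log2 differences from mock of 4.69 ± 0.44 (SE, adjusted p = 0.0119, limma) and 5.45 ± 0.44 (adjusted p = 0.00292). Neither probe set of HSPA6 was called without an intensity trend or without either hIMP1 Dmut array, nor, for hIMP1 wt, with only the 4 arrays compared. HSPD1 and HSPE1 respond to heat shock factor in textbook accounts. At their brightest probe sets their group means differed from mock by 0.16 at most on the log2 scale. The interval of HSPD1 with hIMP1 Dmut ran from -0.57 to 0.31 (limma). That of HSPE1 with hIMP1 wt ran from -0.35 to 0.67. With so few arrays a group these values cannot show that the genes did not respond, and a role of heat shock factor was not tested.

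The signs of the hIMP1 Dmut differences were not shared by the numbers. Within number 1, hIMP1 Dmut was above mock for CCT7 by 0.24 on the log2 scale, for CCT5 and HSPD1 by 0.18, for CCT4 by 0.17 and for HSPE1 by 0.10. Within number 2 it differed from mock by -0.39 for CCT7, -0.23 for CCT5, -0.44 for HSPD1, -0.44 for CCT4 and -0.09 for HSPE1. CCT2 (0.03 and -0.24) and CCT8 (0.02 and -0.14) had the same signs. CCT3 was near 0 and then lower (-0.001 and -0.26), and CCT6A was near 0 in both (0.02 and 0.03).

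So 7 of 9 chaperonin genes were above mock within number 1 and below it within number 2, compared with 26.1% of the 12269 genes. The same 7 genes were above both other arrays within number 1 and below both within number 2, which held for 15.2% of genes. For 6 of 9 the lowest of the 6 arrays was hIMP1 Dmut number 2, compared with 16.3% of genes. The median over the CCT subunits was 0.03 within number 1 and -0.24 within number 2 for hIMP1 Dmut minus mock, where all genes had -0.01 and 0.01. Against hIMP1 wt these medians were 0.08 and -0.26. With 1 array a group in each number the difference between numbers was not tested.

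This arrangement depended on how arrays are scaled. With quantile scaling the CCT medians for hIMP1 Dmut minus mock were -0.004 within number 1 and -0.11 within number 2, with cyclic loess scaling -0.005 and -0.06, and with median scaling 0.12 and -0.47. The count of genes above mock and then below it went from 7 of 9 to 4 of 9 with quantile or cyclic loess scaling, where 26.7% and 26.8% of all genes did so, and to 9 of 9 with median scaling, where 48.0% did. The array with the low values also had the highest median intensity of all 6 (33.7).

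**Figure D3:**
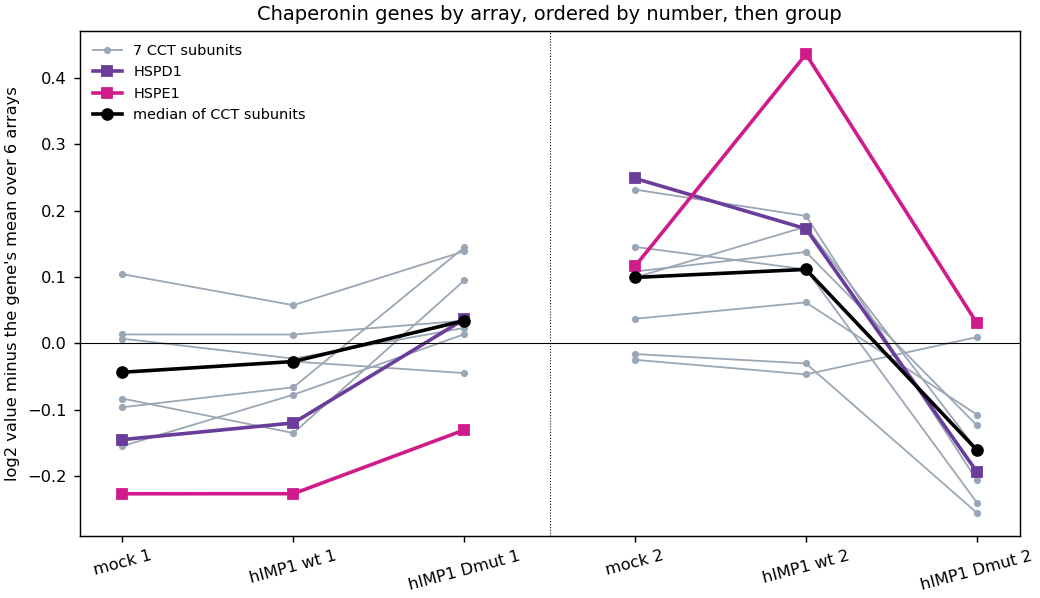
Log2 value of each measured chaperonin gene minus its own mean over the 6 arrays (vertical axis), by array and ordered by number, with each of 7 CCT subunits in grey, their median in black, HSPD1 in purple and HSPE1 in pink. The CCT median is 0.10 on mock number 2, 0.11 on hIMP1 wt number 2 and -0.16 on hIMP1 Dmut number 2, while HSPE1 is below its mean on all 3 arrays numbered 1 and above it on all 3 numbered 2.

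The arrays numbered 2 were compared with those numbered 1 because the correlations between arrays followed number more than group. In a fit with a coefficient for each group, 1558 probe sets (5.71% of kept) were called by limma, of which 767 were higher and 791 lower with number 2. With median scaling 69.9% of calls were higher in place of 49.2%. The count was 0 without an intensity trend, 258 to 565 with a mock or hIMP1 wt array left out, and 5401 and 5136 without hIMP1 Dmut number 1 and 2. None of the 9 chaperonin genes was called. HSPE1 came nearest, at 0.39 ± 0.12 (SE) or 1.31-fold higher (adjusted p = 0.0858, limma). It was higher within mock (0.34), hIMP1 wt (0.66) and hIMP1 Dmut (0.16), which was so for 21.2% of kept probe sets. Leaving out either hIMP1 Dmut array, after which only mock and hIMP1 wt arrays set the estimate, gave 0.50. Without the mock or hIMP1 wt arrays, 1 at a time, HSPE1 was 0.25 to 0.41 higher. Each of these fits leaves 1 array in a group, so only the estimate is given for them. With the alternatives that keep all 6 arrays the adjusted p of HSPE1 ranged from 0.0533 to 0.28 (limma).

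CCT2 was lower with number 2 in all 3 groups, with differences of -0.12, -0.09 and -0.39, as were 22.2% of kept probe sets. Its difference of -0.20 ± 0.12 did not pass (adjusted p = 0.37, limma). It was called with quantile scaling (-0.37, adjusted p = 0.0184) and with cyclic loess scaling (-0.31, adjusted p = 0.0379). The second probe set of CCT2 had -0.33 ± 0.12 (adjusted p = 0.135, limma). CCT6A was lower in all 3 groups, with differences from -0.02 to -0.06, for a difference of -0.04 ± 0.11.

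The other subunits had signs that differed between groups. CCT4 was 0.39 and 0.27 higher within mock and hIMP1 wt and -0.22 with hIMP1 Dmut, and HSPD1 had 0.39, 0.29 and -0.23. CCT3, CCT5, CCT7 and CCT8 followed the same signs. Over the 7 subunits the median difference between numbers was 0.14 within mock, 0.18 within hIMP1 wt and -0.22 within hIMP1 Dmut, beside 0.01, 0.01 and 0.04 for all genes. Without either hIMP1 Dmut array the overall median moved from 0.01 to 0.17. CCT4 was then at 0.33, CCT5 at 0.23 and HSPD1 at 0.34, with only mock and hIMP1 wt arrays setting these estimates.

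Across the 6 arrays most chaperonin genes varied together. Pearson's r between the log2 values of CCT subunits had a median of 0.654 over 21 pairs, and 16 pairs were above 0. The highest value was 0.911 between CCT5 and CCT7 and the lowest -0.828 between CCT3 and CCT6A. CCT4 and HSPD1, which belong to different compartments, had r = 0.990. HSPD1 and HSPE1 had 0.662, and HSPE1 had -0.886 with CCT6A and -0.432 with CCT2. These values describe 6 arrays that share scaling factors and group structure, and they carry no test.

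Among 12260 other genes, those with the highest r to the mean of the CCT subunits were LINC02593 (0.991), CPEB1 (0.989), MTF2 (0.989), PITPNB (0.987) and IDH1-AS1 (0.987). To HSPD1 the closest were PPIA (0.998), which encodes cyclophilin A, BZW2 (0.998), COX7A2L (0.989), KDELR1 (0.988) and NUP62 (0.987). Over the same 6 arrays 163 genes had r above 0.9 with the CCT mean and 323 with HSPD1, so the named genes head long lists.

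Genes that work with CCT were taken from lists of its partners. Prefoldin and other CCT cofactors had 11 of 14 genes measured and 0 called in the comparisons of groups. Their median was 0.04 for hIMP1 wt and 0.01 for hIMP1 Dmut against mock. PFDN1, a prefoldin subunit, did not overlap with mock in either comparison, with 0.21 ± 0.19 (SE) and 0.28 ± 0.19. Of all kept probe sets 9.72% and 12.6% did not overlap upwards in these comparisons, which share the mock arrays. TXNDC9, a phosducin-like regulator of CCT, differed by 0.11 ± 0.23 and 0.32 ± 0.23, and PDCL, another of that family, by -0.32 ± 0.40 and 0.41 ± 0.40. Between constructs PDCL differed by 0.72 ± 0.40 and PFDN5, a prefoldin subunit, by -0.20 ± 0.21. With number 2 PDRG1, a prefoldin-like protein, fell by 0.54 on the log2 scale (adjusted p = 0.0392, limma) as 1 of 11, where 5.71% of kept probe sets were called, and RPAP3 (-0.37) and PDCL (-0.57) did not pass.

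Proteins that CCT folds were represented by 24 of 25 listed client genes, with 0 called in the comparisons of groups. For hIMP1 Dmut against mock 22 of 24 were below 0 in the values as deposited, beside 51.3% of all genes. Their median was -0.09, beside -0.01 for all genes. The clients were not counted under other scalings. For the 9 chaperonin genes the count below 0 was 7 as deposited, 5 with quantile or cyclic loess scaling and 9 with median scaling. PLK1, a mitotic kinase, had the largest difference at -0.75 ± 0.26 (SE, adjusted p = 1.00, limma) and did not overlap. It was the 1 gene of all the lists with an unadjusted p under 0.05 in a comparison of groups. GNB2, a G protein beta subunit, had -0.33 ± 0.19 and CDC20, an activator of the anaphase-promoting complex, -0.28 ± 0.19. Both were also lower without overlap, as were 11% of all kept probe sets. For hIMP1 wt against mock the median was -0.03, with PLK1 at -0.27 ± 0.26, CDC20 at -0.18 ± 0.19 and FZR1, the other activator of that complex, at 0.31 ± 0.33. Between constructs PLK1 had -0.48 ± 0.26, VHL, the von Hippel-Lindau tumour suppressor, 0.38 ± 0.29 and FZR1 -0.39 ± 0.33. With number 2, TUBA1A, an alpha tubulin, rose by 0.99 ± 0.13 (adjusted p = 0.003, limma) and PPP2R2A, a regulatory subunit of protein phosphatase 2A, fell by 0.58 (adjusted p = 0.0158), and FZR1 (-0.61, adjusted p = 0.0509) did not pass. These were 2 of 24, beside 5.71% of kept probe sets.

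The tubulin folding cofactors, which assemble tubulin dimers after CCT, were measured in full (6 of 6) with 0 called in each comparison. Their median was -0.10 for hIMP1 wt and -0.15 for hIMP1 Dmut against mock. TBCB had -0.28 ± 0.20 (SE), TBCD -0.31 ± 0.31 and TBCC -0.19 ± 0.21 with hIMP1 Dmut, and TBCC (-0.16), TBCD (-0.23) and TBCE (-0.15) led with hIMP1 wt. Between constructs TBCB (-0.23), TBCA (0.06) and TBCD (-0.08) led. With number 2 TBCE (-0.33), TBCA (0.32) and TBCD (0.42) had unadjusted p under 0.05 in limma and did not pass. Of all kept probe sets 22.3% had such a p in this comparison. The other genes related to CCT, such as the testis paralog CCT6B and the chaperonin-like Bardet-Biedl genes MKKS, BBS10 and BBS12, had 4 of 5 measured and 0 called in any comparison. CCT6B differed from mock by -0.29 ± 0.25 with hIMP1 wt, and with hIMP1 Dmut BBS12 (-0.19), BBS10 (-0.14) and MKKS (-0.13) led.

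In mitochondria HSPD1 and HSPE1 act after import. They were set beside a list of mitochondrial HSP70 and import motor genes, which also holds translocase genes and HSCB. Of its 18 genes 17 were measured and 0 called between groups. For hIMP1 Dmut against mock 14 of 17 were below 0 with a median of -0.07, beside 51.3% and -0.01 for all genes. That median was 0.08 within number 1 and -0.27 within number 2. PAM16, a regulator of the motor, had -0.43 ± 0.26 (SE), TIMM50, a receptor of the inner membrane translocase, -0.28 ± 0.18 and GRPEL2, a nucleotide exchange factor of mitochondrial HSP70, 0.30 ± 0.19. With hIMP1 wt the median was -0.003, led by TOMM40 (-0.19), TIMM50 (-0.12) and DNAJC19 (0.15). With number 2 HSCB, a co-chaperone for iron-sulphur cluster assembly, fell by 0.65 (adjusted p = 0.0161, limma) as 1 of 17, beside 5.71% of kept probe sets, while TIMM44 (-0.36) and DNAJA3 (-0.26) did not pass.

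The mitochondrial proteases, which remove proteins that fail to fold or cut off import signals, had 10 of 11 measured and 0 called between groups, with medians of 0.03 for hIMP1 wt and -0.01 for hIMP1 Dmut against mock. PMPCA, a subunit of the matrix processing peptidase, had -0.33 ± 0.18 (SE) with hIMP1 Dmut, OMA1 0.36 ± 0.29 and PITRM1 -0.12 ± 0.18. HTRA2 (0.20), OMA1 (0.27) and YME1L1 (0.11) led with hIMP1 wt. With number 2 YME1L1, a protease of the inner membrane, fell by 0.41 (adjusted p = 0.0473, limma) as 1 of 10, beside the same 5.71%, and OMA1 (0.48) and LONP1 (0.28), the matrix protease, did not pass.

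In the values as deposited 3 of these 6 lists had a median above mock within number 1 and below it within number 2. That median of hIMP1 Dmut minus mock was 0.05 and then -0.34 for the tubulin cofactors. It was 0.08 and -0.27 for the mitochondrial HSP70 and import list and 0.04 and -0.19 for prefoldin and cofactors. Gene by gene the same signs held for 4 of 6 tubulin cofactors and 9 of 17 genes of the mitochondrial HSP70 and import list. They held for 5 of 11 prefoldin genes and cofactors, of which 4 had the opposite signs. Of all 12269 genes 26.1% were above mock and then below it, and 28.4% the reverse. The lists were not counted under other scalings. The medians of the clients (-0.03 and -0.27) and of the other CCT-related genes (-0.16 and -0.06) were below mock in both numbers. The proteases had medians of -0.02 and 0.01. By gene, 10 of 24 clients, 3 of 10 proteases and 0 of 4 other CCT-related genes were above mock and then below it. The opposite signs were seen for 6 clients, 4 proteases and 1 other CCT-related gene. No test between lists was made.

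**Figure D4:**
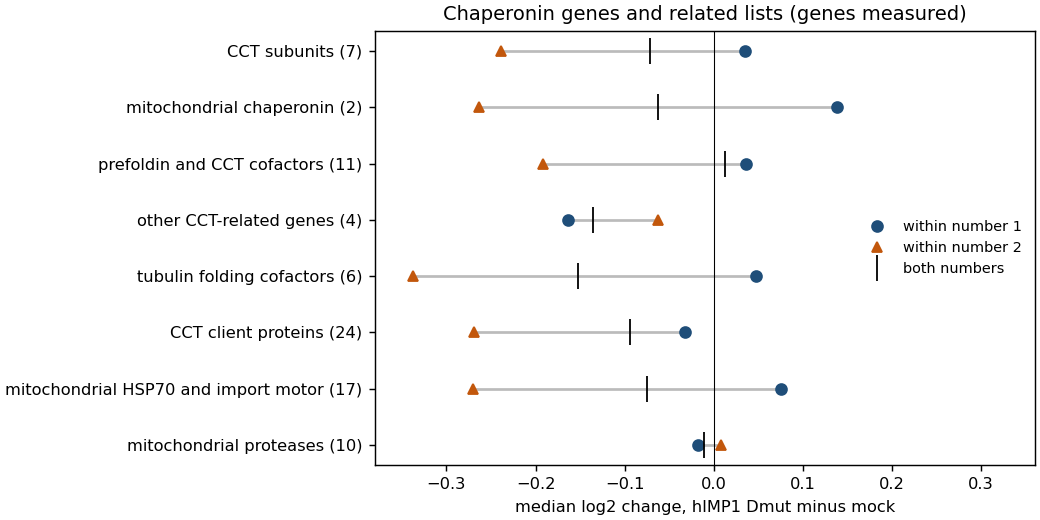
Median log2 difference between hIMP1 Dmut and mock over the measured genes of each list (number in brackets), within the arrays numbered 1 (circles), within those numbered 2 (triangles) and over both (vertical ticks). In 7 of 8 lists the triangle lies below 0, and in the mitochondrial proteases both symbols lie within 0.02 of 0.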

How the data were processed

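The authors deposited 1 linear intensity per probe set and array. How they summarised and scaled it is not given in the sources used here, though the mean after trimming 2% at each end came to 150.02 on each array. Values were taken as deposited and turned into log2 after adding 9.04 (the lower quartile of all values), which shrinks differences of dim probe sets. Without the 62 controls, 27307 of 54613 probe sets were kept for testing, those with a mean log2 value of 5.19 (the median) or more. Symbols came from the platform annotation (41091 probe sets with 1 symbol, 1801 with several, 11721 with none), and no gene was named from several symbols. In lists the brightest kept probe set stands for a gene.

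Groups came from sample descriptions and numbers from titles. On 1 hIMP1 Dmut array the label also reads hIMP Dmut. limma 3.58.1 in R 4.3.3 was fitted over 6 arrays with an intensity trend and either group alone (3 residual degrees of freedom) or group and number (2), two-sided, with Benjamini-Hochberg adjustment and a threshold of 0.05, and was tested on simulated data. The text names the chaperonin genes with every probe set, up to 3 genes of a list by the size of the moderated statistic in a comparison, and the 5 genes of highest correlation. These genes and lists were chosen with earlier results of these data known. The design spoke of 8 CCT subunits, and 7 were measured, since TCP1 had no probe set of its own. Alternatives were quantile, median and cyclic loess scaling, other offsets, filters and priors, the replicate number as a block, no group term, only the 4 arrays compared, gene means and each array left out. A probe set of TCP1 and SNORA29, and the differences within numbers under each scaling, were added after seeing the data.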

Additional observations from a re-analysis of the deposited data

How the results depend on the processing

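No chaperonin gene was called in a comparison of groups under any alternative run. Over 36 gene-by-comparison differences and 639 alternatives, 83 changed sign, 38 of them with all arrays in, 0 lost a call and 10 gained one, all 10 between numbers. The probe sets called for hIMP1 wt minus mock numbered 1 with the offset at the 10th percentile, the filter at the 75th percentile or gene means and 0 without an intensity trend or with only the 4 arrays, and 0 to 3 with an array left out, with 0 when either hIMP1 Dmut array was out. For hIMP1 Dmut minus mock they numbered 1 with the filter at the 75th percentile or gene means, 0 without a trend, and 0 to 2 with an array left out, with 0 again when either hIMP1 Dmut array was out. Between the constructs they numbered 0 to 0. Between numbers they came to 558 without a filter (over 54613 probe sets), 0 without a trend, 561 with gene means (over 12269 genes), and 258 to 5401 with an array left out (554 and 565 without mock number 1 and 2, 313 and 258 without hIMP1 wt number 1 and 2, 5401 and 5136 without hIMP1 Dmut number 1 and 2). With an array left out, the CCT medians ran from -0.0553 to 0.0869, from -0.1885 to 0.0398, from -0.2348 to 0.0509 and from -0.0315 to 0.173 in the 4 comparisons in turn. Median scaling moved the median of all kept probe sets to -0.10 for hIMP1 Dmut minus hIMP1 wt and the CCT median there to -0.20. The causes were not tested.

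With the replicate block the comparisons of groups called 2, 2 and 0 probe sets and the CCT medians stayed at -0.0028, -0.0721 and -0.0703, with no call of a chaperonin gene. Deviations from the group means of same-numbered arrays correlated at 0.464, 0.2 and 0.217 between pairs of groups, and the labels do not say what a number marks. With the probe set of TCP1 and SNORA29 the CCT medians were -0.0023, -0.0681, -0.0711 and 0.0032.

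Signs that turned, for hIMP1 wt minus mock, were with median scaling CCT2 0.0277, CCT5 0.0468, CCT6A 0.047, CCT7 0.0562, CCT8 0.0554 and HSPD1 0.0328, with quantile scaling CCT7 0.0067 and HSPD1 0.0556, with cyclic loess scaling CCT7 0.0011 and CCT8 0.0028, and with gene means CCT2 0.003, CCT4 -0.0757 and CCT6A 0.1136. For hIMP1 Dmut minus mock they were CCT5 0.0364 and CCT8 0.0052 with quantile scaling, CCT5 0.0404 and CCT8 0.0146 with cyclic loess scaling, and CCT6A -0.0442 and HSPE1 -0.0664 with median scaling. For hIMP1 Dmut minus hIMP1 wt they were CCT2 0.0034, CCT5 0.0495 and CCT8 0.0118 with cyclic loess scaling, CCT5 0.0405 and CCT8 0.0098 with quantile scaling, CCT6A -0.0912 with median scaling, and CCT5 0.0706, CCT6A -0.0934 and HSPD1 0.0099 with gene means. Between numbers they were CCT3 -0.0265, CCT5 -0.0369, CCT7 -0.1177 and HSPD1 -0.0267 with quantile scaling, CCT3 -0.0132, CCT5 -0.0096 and CCT7 -0.0838 with cyclic loess scaling, CCT6A 0.0674 and CCT8 0.1032 with median scaling, and CCT6A 0.0066 with gene means.

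Where leaving out an array turned a sign, the values for hIMP1 wt minus mock ran from -0.0906 to 0.0297 for CCT2, -0.0553 to 0.1479 for CCT3, -0.1743 to 0.212 for CCT4, -0.1477 to 0.125 for CCT5, -0.0411 to 0.019 for CCT6A, -0.1227 to 0.1189 for CCT7, -0.0451 to 0.0396 for CCT8, -0.2221 to 0.1714 for HSPD1 and -0.1713 to 0.4908 for HSPE1. For hIMP1 Dmut minus mock they ran from -0.2993 to 0.0946 for CCT2, -0.3279 to 0.0584 for CCT4, -0.1361 to 0.0821 for CCT5, -0.2643 to 0.12 for CCT7, -0.1294 to 0.0012 for CCT8, -0.327 to 0.0664 for HSPD1 and -0.1661 to 0.1766 for HSPE1. For hIMP1 Dmut minus hIMP1 wt they ran from -0.2688 to 0.1251 for CCT2, -0.152 to 0.1207 for CCT5, -0.2624 to 0.1219 for CCT7, -0.1266 to 0.004 for CCT8, -0.2512 to 0.0413 for HSPD1 and -0.4856 to 0.1765 for HSPE1. Between numbers they ran from -0.0133 to 0.2321 for CCT5, -0.1033 to 0.2096 for CCT7 and -0.0503 to 0.0573 for CCT8.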
